A study of Mus musculus with 18 samples.

Results

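The genes described here are 36 genes of sterol and fatty acid synthesis, listed by name among the 35865 genes given under a single name in the RNA-seq table. They comprise the SREBP transcription factors and their control proteins (5 genes), the mevalonate and isoprenoid enzymes (7 genes), the enzymes from squalene to cholesterol (11 genes), genes of sterol transport and efflux (3 genes) and genes of fatty acid synthesis and desaturation (10 genes). The list was made by function, but it was chosen with earlier results of these data known. The RNA of these genes was compared between regulatory T cells (Tregs) with and without CHD8, a chromatin remodelling ATPase, to ask whether their expression differs when CHD8 is deleted.

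Sorted YFP+ Tregs from the spleens of 2 WT and 2 Chd8-/- mice were used, with 1 library of total RNA per mouse, so that p-values measure the spread between mice. The Chd8-/- mice carried floxed Chd8 with a YFP and Cre fusion expressed from the X-linked Foxp3 locus (label CHD8Flox/FloxFoxp3YFP-Cre), and the deletion is therefore driven in cells that express Foxp3. A floxed allele is also given in the labels of the WT mice (CHD8flox/floxFoxp3YFP-Cre/+), whereas the study describes its WT mice as Chd8+/+ with the same Cre. All 4 libraries carry the label Poly IC injection, and the methods give littermates 5 to 7 weeks old. The study describes Chd8-/- mice with inflamed skin and lung that died at 5 to 7 weeks. It also describes their Tregs as activated and proliferating more. Deletion of CHD8 in the Tregs and the disease of the mice cannot be told apart in this comparison.

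Cells make cholesterol from acetyl-CoA through mevalonate, isoprenoids and squalene, and make fatty acids from the same acetyl-CoA through malonyl-CoA. Both routes are controlled by the SREBP factors, which are held in the endoplasmic reticulum by SCAP and INSIG when sterols are plentiful and are cut and sent to the nucleus when sterols are scarce. In Tregs, mevalonate metabolism is known as a route that supports proliferation and suppressive function, and isoprenoids made from it anchor small GTPases to membranes.

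Values are TPM, a read count scaled by gene length and library total, so levels can be set side by side between genes. Changes are differences of log2(TPM + 1), Chd8-/- minus WT. They were tested with limma (two-sided, Benjamini-Hochberg adjustment) over the 15240 genes that reached 1 TPM in at least 2 libraries. Chd8 itself was at 14.9 and 11.4 TPM in the Chd8-/- libraries and at 24.7 and 27.6 TPM in the WT libraries, lower in both but not at 0 over the whole gene (log2 change -0.95, SE 0.29, adjusted p = 0.455). The 7 Treg markers summed to 3342.2 to 4005.7 TPM, and each was detected in all 4 libraries. Chd8-/- replicate 2 stood apart from the others: markers of myeloid cells summed to 1443.9 TPM there against 27.9 to 143.7 TPM elsewhere (5 markers, mainly Lyz2), those of red cells to 1176.6 against 0.7 to 195.1 TPM (3 markers), and those of B cells to 136.3 against 27.2 to 43.4 TPM (4 markers). CD8 and NK markers summed to 11.3 to 40.0 TPM over the 4 libraries. Chd8-/- replicate 1 was the lowest for myeloid markers, at 27.9 against 143.7 and 121.0 TPM in the WT libraries. It was also the lowest for red cell markers, at 0.7 against 182.4 and 195.1 TPM. Leaving out Chd8-/- replicate 2 therefore does not make the genotypes alike in these markers. The log2 values of Chd8-/- replicate 2 correlated at 0.840 and 0.842 with the WT libraries across genes, whereas those of Chd8-/- replicate 1 correlated at 0.897 and 0.902. All 4 libraries had Xist (500.2 to 843.3 TPM) and listed Ddx3y, Eif2s3y, Kdm5d and Uty at 0, while the study describes a male and a female of each genotype. The value without Chd8-/- replicate 2 is given for the genes and groups that moved most, and the plot of each Chd8-/- library against the WT mean shows both libraries for every gene tested.

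Of the 36 genes, 35 passed the filter on low values. Fads2, a desaturase of polyunsaturated fatty acids, did not: it was listed at 5.9 TPM in Chd8-/- replicate 2 and at 0 in the other 3 libraries. Levels ranged widely, from Elovl5, an elongase of polyunsaturated fatty acids, at 119.0 to 144.1 TPM, to Acaca, the carboxylase that commits acetyl-CoA to fatty acids, at 1.9 to 3.0 TPM.

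**Figure D1:**
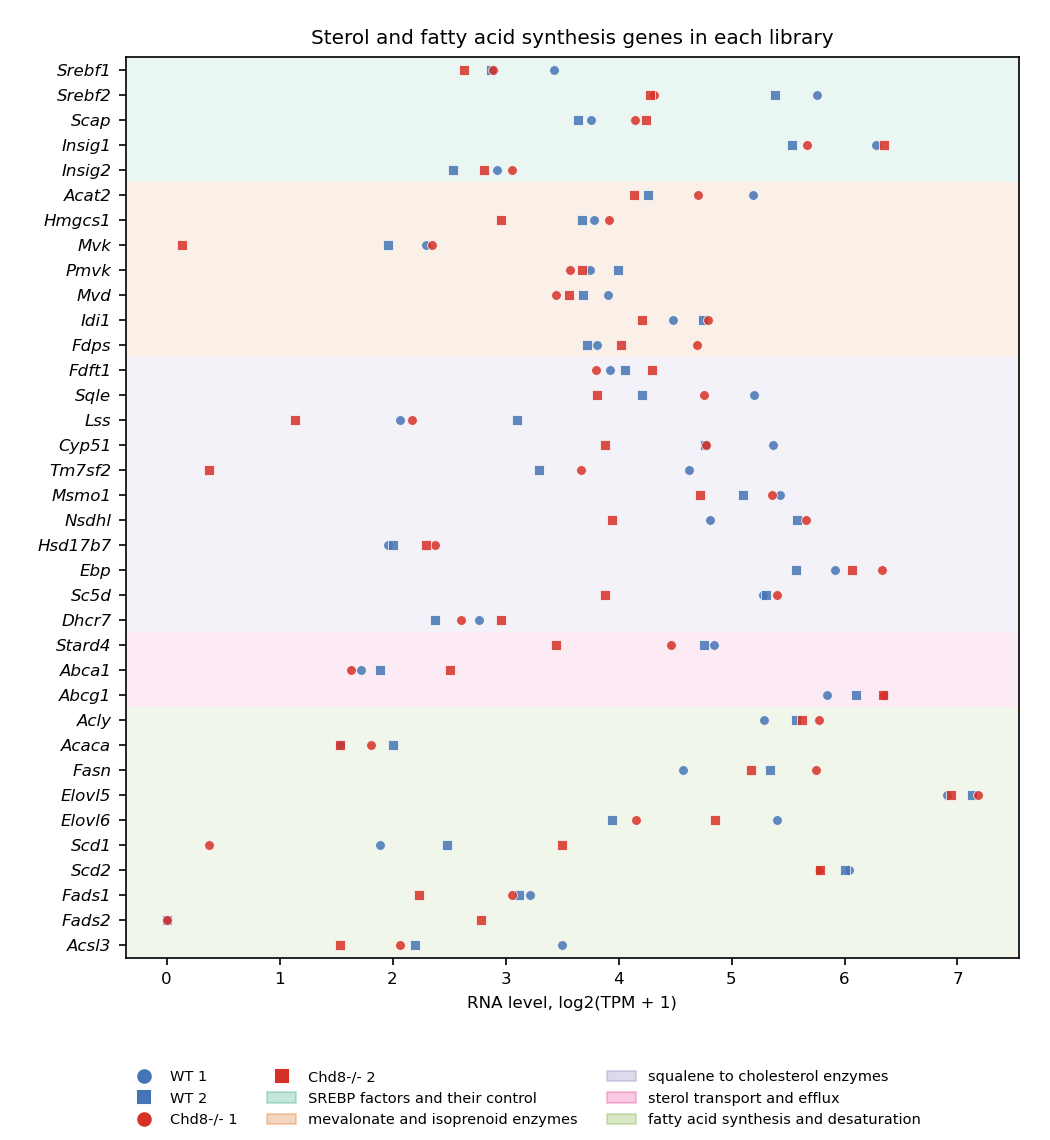
RNA level of each of the 36 genes in each library on the log2(TPM + 1) axis. Blue symbols stand for the WT and red symbols for the Chd8-/- libraries, circles for replicate 1 and squares for replicate 2, and the shading marks the role groups. The red symbols of Srebf2 lie together below both blue ones, while those of Mvk, Tm7sf2 and Scd1 lie far apart from each other.

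Srebf2, which encodes the SREBP factor that mainly drives cholesterol synthesis, was the member with the clearest difference. It was at 18.9 and 18.4 TPM in the Chd8-/- libraries and at 53.1 and 40.7 TPM in the WT libraries. Both Chd8-/- values were below both WT values, and they differed from each other by less than the WT values did. The log2 change was -1.27 (SE 0.26, unadjusted p = 0.00672), with an adjusted p = 0.403, so it did not pass the test over all genes. Without Chd8-/- replicate 2 the log2 change was -1.26, and without Chd8-/- replicate 1 it was -1.29, so either Chd8-/- library alone gave a difference of like size. Without WT replicate 1 it was -1.09, with an unadjusted p = 0.0659. Srebf2 was the 1 member of 35 with an unadjusted p under 0.05, against 10.2% of all genes tested (3.9% higher and 6.3% lower in Chd8-/-).

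Srebf2 lies on the plus strand at chr15:82147269-82205379 (GRCm38, the build to which the RNA reads were aligned). The bases upstream of its start are shown since it is the gene with the clearest difference, and since SREBP factors are known to act on the promoter of this gene. The 250 bases before the RefSeq start (chr15:82147019-82147268, plus strand, GRCm38.p6) are printed 5′ to 3′. Capitals mark, in order, a sterol regulatory element core, TCACNCCA, from 162 to 155 bases before the start, and a CCAAT box read on the opposite strand from 135 to 131 bases before the start.
Srebf2: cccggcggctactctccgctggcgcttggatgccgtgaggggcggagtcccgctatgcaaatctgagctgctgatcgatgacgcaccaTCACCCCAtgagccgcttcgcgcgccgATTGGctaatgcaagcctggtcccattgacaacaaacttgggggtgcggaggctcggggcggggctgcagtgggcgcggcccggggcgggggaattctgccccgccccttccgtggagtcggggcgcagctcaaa

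Promoter windows in RefSeq (250 bases before to 50 bases after the start) were found for 28 of the 36 genes and searched on both strands. The SRE core TCACNCCA, the kind of site that SREBP factors bind, was in 3 of these 28 (10.7%) and in 4.97% of 27025 genes. The CCAAT box, CCAAT, to which NF-Y binds beside SREBP sites, was in 22 of 28 (78.6%) and in 41.1% of genes. The E box CACGTG was in 7 of 28 (25.0%) and in 8.09% of genes. The SRE core and the CCAAT box can share letters where one runs into the other, which they do not in the Srebf2 window. The 30 bases around the SRE core are shown for the 3 genes that hold it, each on the strand of its gene with the core in capitals, at chr13:119690203-119690232 (plus), chr8:64733737-64733766 (minus) and chr15:82147096-82147125 (plus) in the order given.
Hmgcs1: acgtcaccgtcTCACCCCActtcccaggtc
Msmo1: tctcactattcTCACTCCAtccgcgcagcc
Srebf2: atgacgcaccaTCACCCCAtgagccgcttc

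The log2 changes of the 3 genes with this core were all below 0, as were those of 22 of the 35 members tested and 61.5% of all genes. Differences between the 3 genes were not tested. Hmgcs1, which condenses acetyl units to HMG-CoA, was at 14.1 and 6.8 TPM in the Chd8-/- and at 12.8 and 11.8 TPM in the WT libraries (log2 change -0.29, and 0.18 without Chd8-/- replicate 2). Msmo1, a sterol methyl oxidase, was at 40.1 and 25.4 TPM against 42.2 and 33.3 TPM (log2 change -0.22, and 0.09 without Chd8-/- replicate 2). The groups overlapped for both genes, and only Srebf2 of the 3 had both Chd8-/- values below both WT values.

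The Srebf2 gene also holds Mir33 on the same strand, outside its RefSeq exons. miR-33 is known to repress Abca1, which exports cholesterol. The mature miR-33-5p lies at chr15:82198127-82198147, and its seed, bases 2 to 8, is in capitals.
mmu-miR-33-5p: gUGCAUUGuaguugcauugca
Mir33 was listed at 0 in all 4 libraries, so its level is not known from these data. Abca1 was at 2.1 and 4.7 TPM in the Chd8-/- and at 2.3 and 2.7 TPM in the WT libraries. Chd8-/- replicate 1 was the lowest and Chd8-/- replicate 2 the highest of the 4.

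The other genes of the SREBP system had smaller changes in RNA, in both directions. Srebf1, which encodes the factor that mainly drives fatty acid synthesis, was at 6.4 and 5.2 TPM in the Chd8-/- and at 9.8 and 6.3 TPM in the WT libraries. The groups overlapped, since Chd8-/- replicate 1 was above WT replicate 2 (log2 change -0.39, SE 0.40, adjusted p = 0.765). The test of the difference between the changes of Srebf1 and Srebf2 was not made.

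Scap, the escort that carries SREBP from the endoplasmic reticulum to the Golgi, was at 16.7 and 17.9 TPM in the Chd8-/- libraries and at 12.5 and 11.5 TPM in the WT libraries. Both Chd8-/- values were above both WT values, although the change did not pass the test (log2 change 0.49, SE 0.28, adjusted p = 0.611). Insig1, which retains SCAP in the endoplasmic reticulum and is itself a target of SREBP, was at 50.0 and 80.7 TPM against 76.7 and 45.5 TPM. Its Chd8-/- values were within and above the range of WT values, and its log2 change of 0.10 became -0.24 without Chd8-/- replicate 2 and -0.27 without WT replicate 2. Insig2, the other retention factor, was at 7.3 and 6.0 TPM against 6.6 and 4.8 TPM, with overlap between the groups (log2 change 0.20). Over the 5 genes of this group, 3 were above 0 and 2 below, with a median log2 change of 0.10 that was -0.24 without Chd8-/- replicate 2 and -0.27 without WT replicate 2.

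Over the 35 members tested, 13 had a log2 change above 0 and 22 below 0, a share close to that over all genes tested, of which 61.5% were below 0. The median log2 change was -0.24, beside -0.15 over all genes, and the range was -1.94 to 0.59. Without Chd8-/- replicate 2 the median of the members was 0.037, and it was -0.050 with quantile normalization and -0.063 with the library medians set equal. No member passed an adjusted p of 0.05 in limma (smallest adjusted p = 0.403), and neither did any other gene (0% of 15240 genes, smallest adjusted p = 0.0807, with 1555 genes at an unadjusted p under 0.05). A log2 change of 1 or more downward was reached by 3 members (Srebf2, Tm7sf2 and Acsl3), against 11.6% of all genes, and upward by 0 members, against 5.12% (16.7% in either direction). At a log2 change of 0.7, 7 members were lower, against 19.2% of all genes, and 0 were higher, against 9.2%.

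Both Chd8-/- libraries were above both WT libraries for 6 members (Scap, Fdps, Hsd17b7, Ebp, Abcg1 and Acly), against 14.8% of all genes. Both were below for 7 members (Srebf2, Pmvk, Mvd, Stard4, Scd2, Fads1 and Acsl3), against 27.8%. With 2 against 2 libraries, an exact permutation test of a single gene cannot give a p below 0.333.

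**Figure D2:**
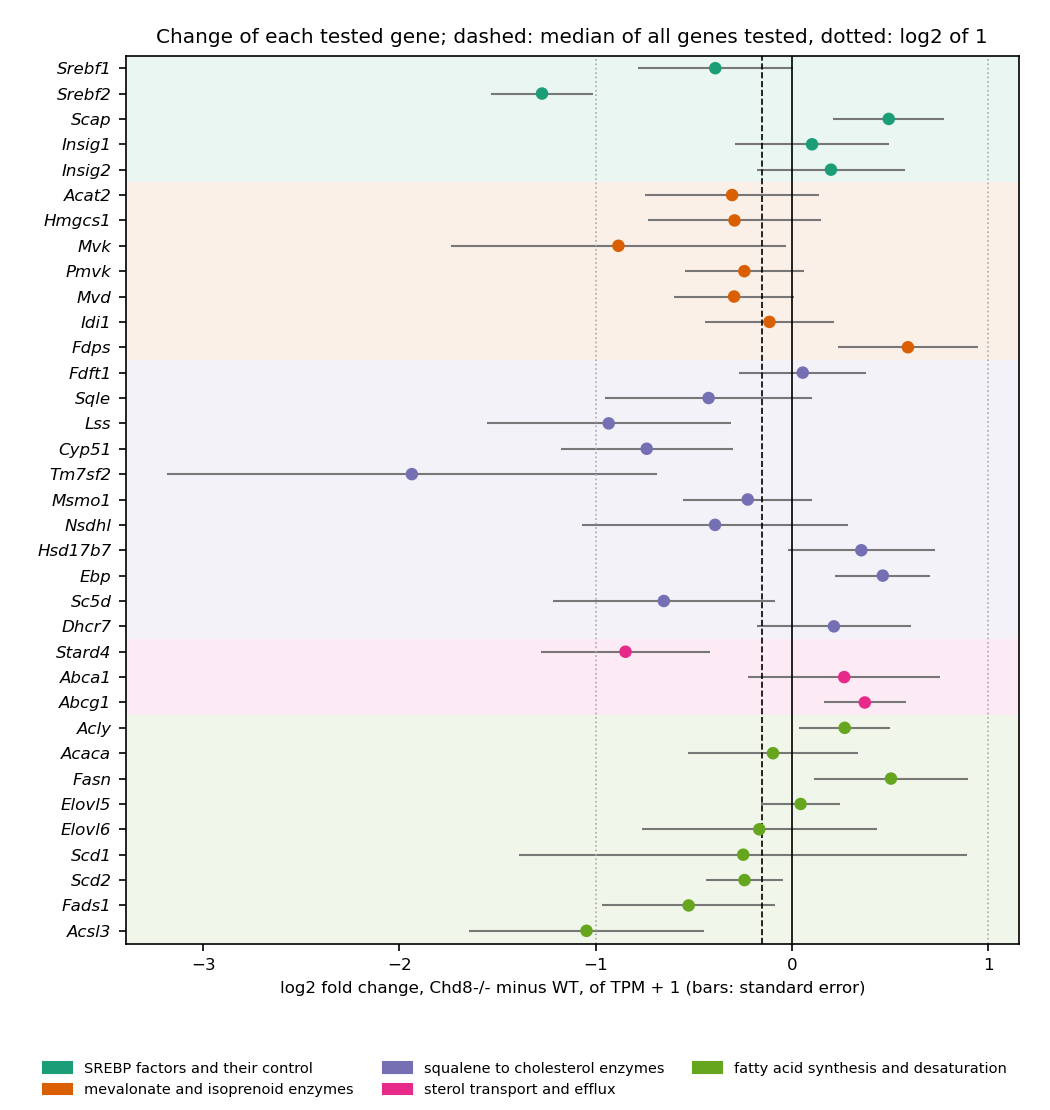
Log2 fold change of TPM + 1 (Chd8-/- minus WT) of the 35 genes tested, with bars of 1 standard error from limma and colours for the role groups. The dashed line is the median of all genes tested (-0.15) and the dotted lines are at -1 and 1. Srebf2 (-1.27, SE 0.26) has a short bar away from 0, and Tm7sf2 (-1.94, SE 1.25) has the longest bar.

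The early enzymes, from acetyl-CoA to the isoprenoids, were mostly within the spread of the replicates. Of these 7 genes, 1 had a log2 change above 0 and 6 below, with a median of -0.29 that was 0.18 without Chd8-/- replicate 2. Of all genes tested, 61.5% were below 0. None of the 7 had an unadjusted p under 0.05 in limma, against 10.2% of all genes. Fdps, which makes farnesyl diphosphate, the branch point to sterols, prenyl groups and dolichol, was the highest. It was at 24.9 and 15.2 TPM in the Chd8-/- libraries and at 13.0 and 12.2 TPM in the WT libraries. Both Chd8-/- values were above both WT values, with replicate 1 the farther (log2 change 0.59, SE 0.36, adjusted p = 0.63). Without Chd8-/- replicate 2 the log2 change of Fdps was 0.93, and without Chd8-/- replicate 1 it was 0.25.

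Mvk, the kinase that phosphorylates mevalonate, was the lowest of this group. It was at 4.1 and 0.1 TPM in the Chd8-/- libraries against 3.9 and 2.9 TPM in the WT libraries. Chd8-/- replicate 1 was the highest of the 4 and replicate 2 was near 0, so the log2 change of -0.88 (SE 0.86, adjusted p = 0.753) rested on 1 library and was 0.22 without it. Pmvk and Mvd, the next kinase and the decarboxylase of the route, had Chd8-/- values just below both WT values, 10.9 and 11.8 against 12.4 and 14.9 TPM for Pmvk, and 9.9 and 10.8 against 14.0 and 11.9 TPM for Mvd. Their log2 changes were -0.24 and -0.29. Mvd shares 34.4% of its exon bases with Gm51557 on the opposite strand, and whether reads were counted by strand is not given in the sources used here. The remaining genes of the group, Acat2, Hmgcs1 and Idi1, had log2 changes between -0.30 and -0.11, with overlap between the groups. Without Chd8-/- replicate 2 these changes were between -0.02 and 0.18.

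The enzymes that turn squalene into cholesterol showed the widest spread between the Chd8-/- libraries. Of these 11 genes, 4 had a log2 change above 0 and 7 below, with a median of -0.39 that was 0.05 without Chd8-/- replicate 2. The share below 0 was close to that of all genes (61.5%). None of the 11 had an unadjusted p under 0.05 in limma, against 10.2% of all genes. Tm7sf2, a sterol C14 reductase, was at 11.7 and 0.3 TPM in the Chd8-/- libraries and at 23.7 and 8.8 TPM in the WT libraries. Chd8-/- replicate 1 lay between the WT values and replicate 2 was near 0, with a log2 change of -1.94 (SE 1.25, adjusted p = 0.646) that was -0.29 without Chd8-/- replicate 2.

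Lss, which closes the ring of the sterol from oxidosqualene, was at 3.5 and 1.2 TPM against 3.2 and 7.6 TPM (log2 change -0.93, SE 0.62, adjusted p = 0.657). Its Chd8-/- replicate 1 was above WT replicate 1, and without Chd8-/- replicate 2 the log2 change was -0.42. Cyp51, the lanosterol demethylase, was at 26.4 and 13.7 TPM against 40.3 and 26.2 TPM (log2 change -0.74, SE 0.44, adjusted p = 0.625). Chd8-/- replicate 1 was just above WT replicate 2, and the log2 change without Chd8-/- replicate 2 was -0.29. Sqle, which oxidises squalene and is a control point of the route, had a log2 change of -0.42, with 26.0 and 13.0 TPM against 35.8 and 17.5 TPM. The groups overlapped for Sqle, replicate 1 was the higher one in each, and the log2 change was 0.05 without Chd8-/- replicate 2.

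Of the 11 genes of this group, 2 (Ebp and Hsd17b7) were higher without overlap, near the share of 14.8% of all genes tested. Lower without overlap were 0 of the 11, against 27.8% of all genes. Ebp, the sterol isomerase, was the most abundant enzyme of this stretch, at 79.7 and 66.2 TPM in the Chd8-/- libraries and at 59.2 and 46.4 TPM in the WT libraries. Both Chd8-/- values were above both WT values (log2 change 0.46, SE 0.24, adjusted p = 0.586). Hsd17b7, a sterol ketoreductase, was at 4.2 and 3.9 TPM against 2.9 and 3.0 TPM, again without overlap (log2 change 0.35). Nsdhl and Sc5d, a dehydrogenase and a desaturase of this stretch, had replicate 1 above both WT values and replicate 2 far below them, 49.6 and 14.4 against 27.0 and 46.9 TPM for Nsdhl, and 41.4 and 13.7 against 37.9 and 38.6 TPM for Sc5d. The log2 changes of Nsdhl and Sc5d were -0.39 and -0.65, and 0.47 and 0.11 without Chd8-/- replicate 2. Fdft1 and Dhcr7, the first and a last enzyme from farnesyl diphosphate to cholesterol, had log2 changes of 0.06 and 0.21, and of -0.19 and 0.04 without that library.

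Taking the 18 sterol enzymes from Acat2 to Dhcr7 together, the 2 Chd8-/- libraries differed from each other. Chd8-/- replicate 1 was below the WT mean for 7 of 18 and replicate 2 for 13 of 18, with median log2 differences of 0.07 and -0.57. Over all genes tested, 53.1% and 63.0% were below the WT mean in these libraries, with medians of -0.04 and -0.25. Chd8-/- replicate 2 was the lowest of the 4 libraries for 11 of the 18 enzymes (61.1%), compared with 44.4% of all genes. The summed TPM of the 18 enzymes was 416.3 and 256.0 in the Chd8-/- and 405.2 and 345.8 in the WT libraries. The myeloid, red cell and B cell markers were highest in the same Chd8-/- replicate 2, and their part in these values was not tested. In bulk RNA, fewer cells of a type and less RNA per cell cannot be told apart.

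**Figure D3:**
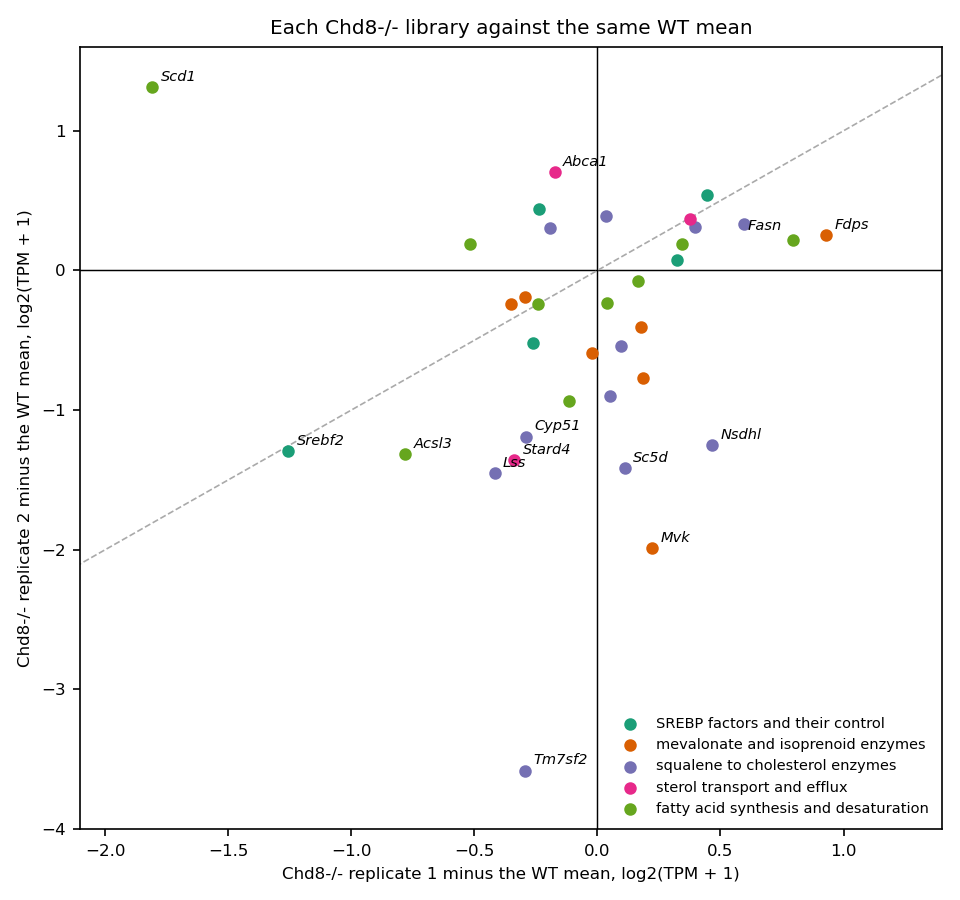
Difference of each Chd8-/- library from the WT mean on the log2(TPM + 1) scale, replicate 1 on the horizontal and replicate 2 on the vertical axis, with 1 point per gene tested and colours for the role groups. The dashed line marks equal differences, and both axes share the same WT mean. Srebf2 lies on the line (-1.26 and -1.29), while Tm7sf2 (-0.29 and -3.58), Mvk (0.22 and -1.99) and Scd1 (-1.81 and 1.31) lie far from it.

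Among the genes of sterol transport, Stard4 and Abcg1 had no overlap between the groups, in opposite directions. Of all genes tested, 14.8% were higher and 27.8% were lower without overlap. Stard4, which carries cholesterol between membranes and is itself a target of SREBP2, was at 21.1 and 9.9 TPM in the Chd8-/- libraries and at 27.8 and 26.1 TPM in the WT libraries. The WT values lay close together and both Chd8-/- values were below them, replicate 2 the farther (log2 change -0.85, SE 0.43, adjusted p = 0.581). Without Chd8-/- replicate 2 the log2 change was -0.34. Abcg1, which exports cholesterol and is driven by LXR receptors, was at 80.4 and 80.1 TPM against 56.4 and 67.7 TPM. Its Chd8-/- values were nearly equal and above both WT values (log2 change 0.37, SE 0.21, adjusted p = 0.603). The median over these 3 genes, with Abca1, was 0.27, and it was -0.17 without Chd8-/- replicate 2.

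The genes of fatty acid synthesis had no common direction. Of 9 tested, 3 had a log2 change above 0 and 6 below, with a median of -0.17 that was 0.05 without WT replicate 2. The share below 0 was close to that of all genes (61.5%). The summed TPM of the 10 genes was 334.5 and 310.5 in the Chd8-/- and 309.0 and 320.6 in the WT libraries, a range narrower than that of the squalene to cholesterol enzymes (300.6 and 177.2 against 292.2 and 248.1). Fasn, the fatty acid synthase, had the highest log2 change of this group, with 52.8 and 35.0 TPM in the Chd8-/- and 22.8 and 39.4 TPM in the WT libraries. The groups overlapped, since WT replicate 2 was above Chd8-/- replicate 2 (log2 change 0.51, SE 0.39, adjusted p = 0.695). The log2 change of Fasn ranged from 0.12 without WT replicate 1 to 0.89 without WT replicate 2, and was 0.22 without Chd8-/- replicate 1 and 0.79 without Chd8-/- replicate 2.

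Acsl3, a ligase that activates long-chain fatty acids, had the lowest. It was at 3.2 and 1.9 TPM in the Chd8-/- and at 10.3 and 3.6 TPM in the WT libraries. Both Chd8-/- values were below both WT values, but the log2 change of -1.05 (SE 0.60, adjusted p = 0.612) was -0.40 without WT replicate 1, which was far above the rest. Acsl3 shares 10.6% of its exon bases with Utp14b on the same strand, and how reads in shared bases were counted is not given in the sources used here.

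Acly, which makes acetyl-CoA from citrate and so feeds both routes, was at 53.7 and 48.2 TPM against 38.1 and 46.4 TPM, with both Chd8-/- values the higher (log2 change 0.27). Acaca, at 2.5 and 1.9 TPM against 1.9 and 3.0 TPM, overlapped between the groups (log2 change -0.10). Of the desaturases, Scd2 was at 53.8 and 53.9 TPM against 64.7 and 63.0 TPM (log2 change -0.24), with close replicates in both groups. Scd1, its paralog, was at 0.3 and 10.3 TPM against 2.7 and 4.6 TPM, the Chd8-/- libraries being the lowest and the highest of the 4. Fads1, a desaturase that acts beside Fads2, was at 7.3 and 3.7 TPM against 8.3 and 7.7 TPM (log2 change -0.53, and -0.12 without Chd8-/- replicate 2). Elovl5 and Elovl6, the elongases, had log2 changes of 0.04 and -0.17 with overlap between the groups.

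**Figure D4:**
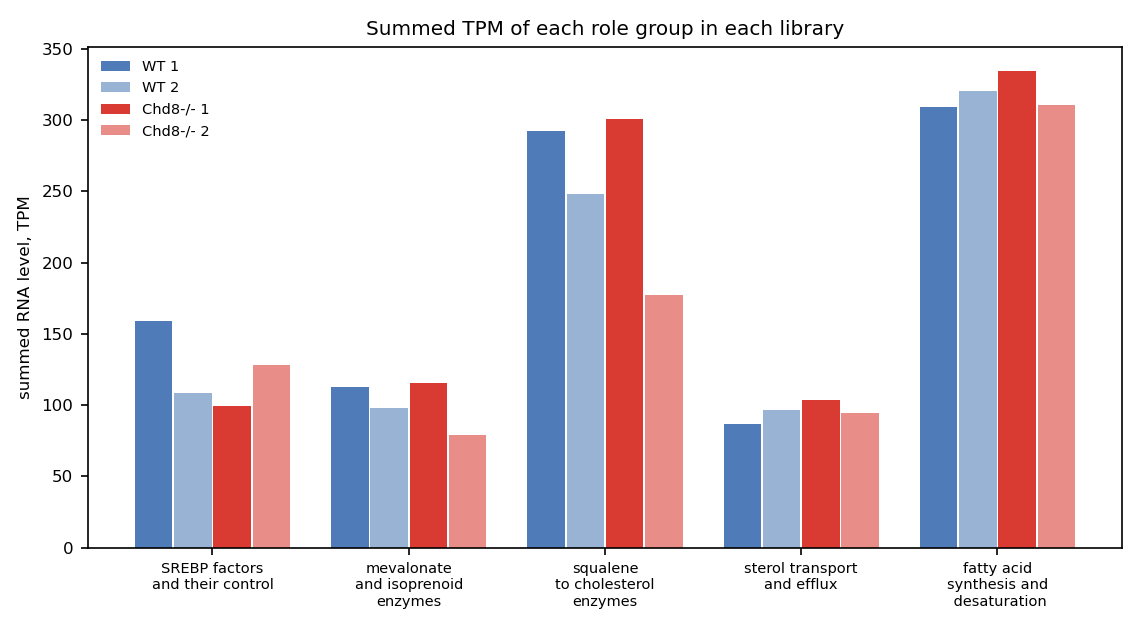
Summed TPM of the genes of each role group in each library, with 1 bar per library (blue WT, red Chd8-/-, paler bars for replicate 2) and no error bars since each bar is 1 library. The squalene to cholesterol enzymes sum to 177.2 TPM in Chd8-/- replicate 2 and to 248.1 to 300.6 TPM in the other 3 libraries, while the sums of fatty acid synthesis lie between 309.0 and 334.5 TPM.

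A further 46 genes of the same pathways were examined beside the members: SREBP processing and stability, the LXR receptors and sterol esterification, the isoprenoid branch, and the elongation, activation and supply of fatty acids. Of these, 41 were tested, with a median log2 change of -0.13. Of the 41, 1 was higher and 0 were lower at an unadjusted p under 0.05, against 3.9% and 6.3% of all genes, so the count was not above that of all genes. The gene that was higher was Nus1, which encodes a subunit of the enzyme that makes dolichol from farnesyl diphosphate. Nus1 was at 100.9 and 96.6 TPM in the Chd8-/- libraries and at 67.6 and 66.7 TPM in the WT libraries. Replicates were close in both groups, and the groups did not overlap (log2 change 0.55, SE 0.18, unadjusted p = 0.0367, adjusted p = 0.47). Nus1 uses the product of Fdps, which was also higher in both Chd8-/- libraries, and neither passed the test over all genes. The isoprenoid branch had no common direction. Of its 9 genes, 4 had a log2 change above 0 and 5 below, with a median of -0.11. Of all genes tested, 61.5% were below 0. Both Chd8-/- libraries were above both WT libraries for 2 of the 9 genes, against 14.8% of all genes. Both were below for 2, against 27.8%, so these counts did not set the branch apart.

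By the mean over the 4 libraries, the most abundant genes of the LXR, isoprenoid and elongation lists were Mylip, Fnta and Tecr. Mylip, a target of LXR that degrades lipoprotein receptors, was at 32.0 and 31.3 TPM in the Chd8-/- and at 42.0 and 45.0 TPM in the WT libraries, both Chd8-/- values being lower (log2 change -0.45, SE 0.22, adjusted p = 0.569). Fnta, a subunit of the farnesyl and geranylgeranyl transferases, was at 124.2 and 41.6 TPM against 124.4 and 82.4 TPM, with overlap and Chd8-/- replicate 2 the lowest. Tecr, which completes each round of elongation of very long fatty acids, was at 276.3 and 180.1 TPM against 273.3 and 186.9 TPM, with the replicates farther apart than the genotypes. The medians of the lists were -0.21 for SREBP processing (8 genes), -0.24 for LXR and esterification (12 genes), -0.11 for the isoprenoid branch (9 genes) and 0.13 for elongation and supply (12 genes).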

How the data were processed

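RNA-seq of 2 WT and 2 Chd8-/- mice was used. The authors trimmed the reads (Trim Galore 0.4.2, cutadapt 1.9.1), aligned them to mm10 with STAR 2.6.1e, removed duplicates, counted RefSeq genes with featureCounts 1.6.2 and deposited TPM rounded to 0.1. TPM keeps no depth, so no counting interval is given. ATAC-seq and CHIP-seq peaks, given in mm39, are not analysed here.

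Genes with at least 1 TPM in 2 or more libraries were fitted as log2(TPM + 1) with limma 3.58.1 in R 4.3.3 (eBayes with trend, no covariates), which was tested on simulated data. Entries under repeated names (4) were left out. Tables were made with Python 3.11.15 and pandas 2.3.3. Positions and sequences are from RefSeq GRCm38.p6, in which all 36 genes were found.

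The members, lists and tests were chosen with earlier results of these data known. Values in every library were planned for the SREBP regulators, members with a log2 change of at least 0.7 or an unadjusted p under 0.05, and the highest and lowest of each role group (15 members). Values of other members were added to show each group. Further genes were named by an unadjusted p under 0.05, a log2 change of at least 1, or the highest level of each list (6 genes, of which 1 is not reported here). The 12 alternatives were other pseudocounts (0.1 and 5 TPM), filters (none, mean TPM of at least 5), scalings, a replicate block, no trend, and each library left out.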

Additional observations from a re-analysis of the deposited data

How the results depend on the processing

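Of the 15 members chosen by the naming rule, 13 kept the sign of their log2 change under all 12 alternatives. The exceptions were Insig1 (-0.27 to 0.47 with a library left out, below 0 without WT replicate 2 and, at -0.24, without Chd8-/- replicate 2) and Mvk (-1.99 to 0.22, above 0 without Chd8-/- replicate 2). The log2 change of Srebf2 ranged from -1.46 to -1.09 with a library left out and from -1.31 to -1.10 otherwise, with adjusted p from 0.211 to 0.971 in limma. When 1 library was left out, the lone library was assumed to vary like the other genotype.

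No member passed an adjusted p of 0.05 under any alternative, and of all genes 2 did with a mean TPM of at least 5 and 0 under the other alternatives. Members with an unadjusted p under 0.05 in limma numbered 3 with the library medians set equal (Srebf2, Abcg1 and Ebp) and 2 with the replicate block (Srebf2 and Tm7sf2). For the counts by unadjusted p and by log2 change in this paragraph, shares of all genes under the same alternatives were not taken. These counts are therefore no result about the members. The replicate numbers gave no sign of pairing (correlation of the deviations of same-numbered libraries -0.01), and the block changed no other call. Members lower by a log2 change of 1 or more numbered 5 at a pseudocount of 0.1 TPM and 2 to 9 with a library left out, 9 of them without Chd8-/- replicate 1. Members higher by as much numbered 1 without the filter (Fads2) and 0 to 1 with a library left out.

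Quantile normalization and equal library medians moved the median of all genes from -0.15 to 0.0016 and 0.028. The median of the mevalonate enzymes was then -0.077 and -0.11, that of fatty acid synthesis 0.0053 and 0.012, and that of the SREBP group 0.28 with equal medians. The median of sterol transport was -0.24 with a mean TPM of at least 5, which leaves out Abca1. With a library left out, the medians ranged from -0.26 to 0.037 for all members, -0.27 to 0.39 for the SREBP group, -0.41 to 0.18 for the mevalonate enzymes, -0.90 to 0.049 for the squalene to cholesterol enzymes, -0.17 to 0.37 for sterol transport and -0.22 to 0.051 for fatty acid synthesis. The highest value of all members and of both enzyme groups of sterol synthesis was reached without Chd8-/- replicate 2. The median of all genes was -0.25 without Chd8-/- replicate 1 and -0.04 without Chd8-/- replicate 2.

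The planned values of ATAC-seq and CHIP-seq peaks at the start sites of the members were not run, since no gene positions in mm39 were used here. The study itself lists Srebf2 among genes bound by CHD8 with lower RNA and lower accessibility in Chd8-/- cells. Its RNA values come from the same libraries as those used here. With 2 libraries per genotype and an unknown depth, differences of the size seen between replicates were not detectable.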

Other observations

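Genes of fatty acid oxidation, the route opposite to synthesis, had log2 changes in both directions, from -0.87 to 0.84. Of 16 genes 15 were tested, 6 with a log2 change above 0 and 9 below (61.5% of all genes were below). The median was -0.05, beside -0.15 over all genes, and 0 had an unadjusted p under 0.05 in limma, against 10.2% of all genes. Hadha, a subunit of the mitochondrial trifunctional protein, had the highest mean level. It was at 131.7 and 176.8 TPM in the Chd8-/- and at 123.6 and 115.2 TPM in the WT libraries, both Chd8-/- values being higher (log2 change 0.35, SE 0.22, adjusted p = 0.643). Ppara, a nuclear receptor that drives this route in liver, was listed at 0 in all 4 libraries. The genes with the highest and lowest change were chosen after their values were seen. Acaa2, the thiolase of the last step, was at 123.6 and 91.2 TPM against 76.9 and 44.9 TPM (log2 change 0.84, SE 0.35, adjusted p = 0.523), and Cpt2, which reforms acyl-CoA inside mitochondria, was at 16.0 and 10.5 TPM against 18.0 and 33.6 TPM (log2 change -0.87, SE 0.44, adjusted p = 0.576). The groups did not overlap for either gene.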
